A study of Mus musculus with 6 samples.

Results

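Chemokine receptors are membrane-spanning proteins that couple to inhibitory G proteins and steer leukocytes along gradients of chemokines. Naive CD4 T cells carry Ccr7, which holds them in lymphoid tissue, and effector cells exchange it for receptors that lead them into inflamed organs. The set carried by a helper T cell is therefore a common label of its fate: Cxcr3 and Cxcr6 are associated with Th1 cells, Ccr4 and Ccr8 with Th2 and regulatory T cells, and Ccr6 with Th17 cells.

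The 9 receptor genes of effector T cells followed here were Ccr2, Ccr4, Ccr6, Ccr8, Ccr9, Cxcr3, Cxcr4, Cxcr6 and Cx3cr1. They were chosen by name, and every probe set that the platform annotation pairs with exactly 1 of these symbols was read on all 6 arrays. This gave 18 probe sets of the 45101 in the file, with 5 for Ccr9, 4 for Ccr2, 2 each for Cxcr6 and Cx3cr1 and 1 for each of the others. The study put wild type and Ezh2 knockout (Ezh2 KO) CD4 T cells into 3 cultures, unpolarized, Th1 and Th2, and hybridized 1 Affymetrix 3' expression array per combination. All cells came as naive CD4 T cells from C57BL/6 spleens. All were stimulated for 2 days with 10 µg/ml of an antibody to the T cell receptor beta chain, bound to the plate, and 1 µg/ml antibody to CD28 in 15 ng/ml IL-2, then kept 3 days without these 2 antibodies, 5 days in all. Th1 cultures had 1 ng/ml IL-12 with an antibody to IL-4, Th2 cultures 10 ng/ml IL-4 with an antibody to interferon gamma, and unpolarized cultures both blocking antibodies. Ezh2 is a catalytic subunit of Polycomb repressive complex 2, which methylates lysine 27 of histone H3. The labels give neither the deleted part of Ezh2 nor the Cre line, and do not say whether the arrays came from separate mice. No group had a replicate, so the spread behind each p-value is not a spread between replicates. It holds noise, which may be technical, together with any change of the genotype difference between cultures. These parts cannot be told apart, and a genotype difference that depends on culture raises the p-value.

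The values are linear intensities. A floor of 11.33 and a low-signal limit of 64.43 were used throughout: values were raised to the floor before log2 was taken, and a gene was tested if its brightest probe set (the one with the highest mean) reached the limit on any array, which 11572 genes did. Array medians ran from 61.29 to 69.06. The targeted gene, read by an Ezh2 probe set, gave 7002 (unpolarized), 6553 (Th1) and 7677 (Th2) in wild type cells, against 4971, 4876 and 4946 in Ezh2 KO cells, so much signal remained, and a probe set outside the deleted part would check nothing. The CD4 T cell markers were above the limit on all arrays, for the 7 of 8 with a named probe set. Their summed intensities, mostly from Cd3d and Cd3g, were 48309 to 52291 in wild type and 52806 to 57894 in Ezh2 KO. Cd4 itself read 496.2, 476.9 and 548.1 in wild type, against 433, 300.2 and 315.2 in Ezh2 KO, in the same culture order. Cd4 and Cd5 were lower in Ezh2 KO without overlap but did not pass the test given below. Of the 7, 1 passed as higher (Cd247) and 0 as lower. Bulk arrays cannot tell fewer cells of a type from less RNA per cell.

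The plot of receptor intensities by array shows the whole set. Of the 9 genes, 6 were tested and 3 (Ccr8, Ccr9 and Cx3cr1, with 8 probe sets) stayed under the limit on every array.

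**Figure D1:**
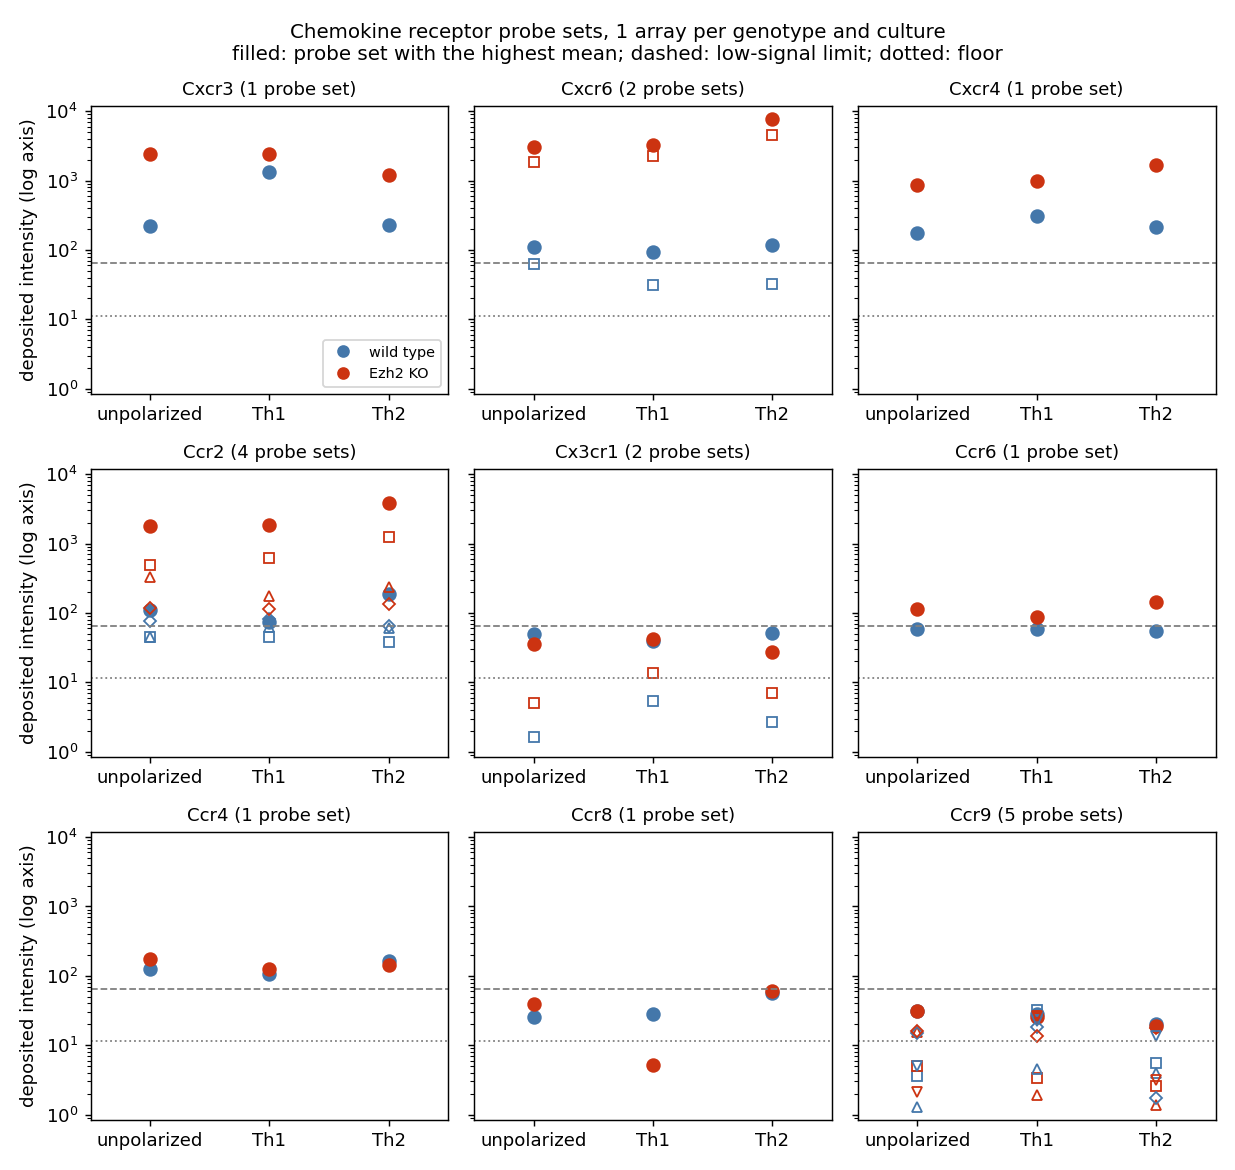
Deposited intensity (log axis) of all 18 probe sets in the 3 cultures, 1 panel per gene, blue for wild type and red for Ezh2 KO, 1 array per point. Filled points are the brightest probe set of the gene, the dashed line is the low-signal limit of 64.43 and the dotted line the floor of 11.33. Cxcr6, Ccr2 and Cxcr4 separate by genotype in each culture, Cxcr3 reads 1313 in wild type Th1 cultures, and Ccr8, Ccr9 and Cx3cr1 stay under the dashed line.

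The 250 bases upstream of the annotated start are shown for the 4 receptors with the largest mean genotype differences, because these 4 promoters differ in base composition while their transcripts were higher in Ezh2 KO in each culture. Sequences are from RefSeq, build GRCm38.p6, 5′ to 3′ on the gene's own strand, with every CG dinucleotide, the substrate of DNA methylation, in capitals.
Cxcr6, chr9:123806227-123806476, plus strand: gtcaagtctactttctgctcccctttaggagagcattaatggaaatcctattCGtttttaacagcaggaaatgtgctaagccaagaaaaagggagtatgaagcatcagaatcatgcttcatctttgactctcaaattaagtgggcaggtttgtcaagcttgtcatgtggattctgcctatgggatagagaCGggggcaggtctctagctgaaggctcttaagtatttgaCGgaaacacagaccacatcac
Ccr2, chr9:124101933-124102182, plus strand: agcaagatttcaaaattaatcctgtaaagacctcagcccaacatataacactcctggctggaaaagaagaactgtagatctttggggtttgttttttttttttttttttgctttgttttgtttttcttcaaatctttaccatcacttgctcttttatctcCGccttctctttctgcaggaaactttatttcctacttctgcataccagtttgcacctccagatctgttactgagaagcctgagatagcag
Cxcr3, chrX:101734148-101734397, minus strand: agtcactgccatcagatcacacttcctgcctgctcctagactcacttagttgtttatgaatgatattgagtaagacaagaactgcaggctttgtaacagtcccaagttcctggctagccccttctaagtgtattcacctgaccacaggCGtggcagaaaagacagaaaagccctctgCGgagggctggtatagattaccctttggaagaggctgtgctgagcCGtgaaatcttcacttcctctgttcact
Cxcr4, chr1:128592300-128592549, minus strand: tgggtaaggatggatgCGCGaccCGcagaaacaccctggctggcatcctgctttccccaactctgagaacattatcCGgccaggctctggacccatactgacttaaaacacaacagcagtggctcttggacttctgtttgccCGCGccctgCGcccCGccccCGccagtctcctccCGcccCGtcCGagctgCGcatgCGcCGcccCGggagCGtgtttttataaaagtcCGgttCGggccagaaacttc
Cxcr4 stood apart in these letters, with 19 CG dinucleotides and 61.2% G or C. Cxcr6 had 3 CG (43.6% G or C), Ccr2 had 1 (37.2%) and Cxcr3 had 3 (48.0%). As many CG as in the Cxcr4 window were found in 19.7% of the 32851 windows of this length in the table, and the median window held 6. The other members, matched by symbol as were all 9 genes, had 1 to 7 CG. Short factor motifs were searched on both strands: the RUNX core TGTGGT lay 10 to 5 bases before the Cxcr6 start and 110 to 105 bases before the Cxcr3 start, against 14.05% of all windows with at least 1. The T-box core GTGTGA lay 234 to 229 bases before the Cxcr3 start (12.29% of all windows), AGATAA lay 97 to 92 bases before the Ccr2 start (9.99%), and TATAAA matched at 2 overlapping places within 32 to 25 bases before the Cxcr4 start (12.37%). The RUNX core also lay 54 to 49 bases before the Cx3cr1 start. AGATAA also lay 239 to 234 bases before the Ccr8 start and 70 to 65 bases before a Ccr6 start. Neither Cx3cr1 nor Ccr8 reached the low-signal limit on any array. These matches describe letters only.

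The first comparison asked how the receptors differed between Ezh2 KO and wild type across the cultures. Cxcr6, Ccr2 and Cxcr4 were higher in Ezh2 KO (Benjamini-Hochberg adjusted p under 0.05 over all genes tested, from a limma model that had culture as a term), and 0 of the 9 genes were lower. Among all tested genes 8.35% were higher and 7.98% lower by this rule. Since the filter passes a gene on its brightest array, the share of called genes among the 6 that passed is a description only: their median log2 difference was 2.29, against -0.07 over all genes tested. All 3 calls were lost, as were those of all other genes, when the filter on dim genes was dropped or any 1 culture was left out, with directions kept.

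Cxcr6, the receptor for the membrane-bound chemokine Cxcl16 and a mark of tissue-resident and Th1 cells, had the largest difference. Its brightest probe set read 111.7 unpolarized, 93.9 in Th1 and 117.3 in Th2 cultures of wild type cells, and 3037, 3241 and 7631 in Ezh2 KO, an order of cultures that is kept for all values that follow. The second probe set read 62.2, 31.1 and 31.9 in wild type, against 1851, 2266 and 4545 in Ezh2 KO. Both probe sets separated the genotypes without overlap and were highest in the Ezh2 KO Th2 culture. The log2 difference of the brightest one was 5.30 ± 0.65 (SD, n = 3 cultures), 39.4-fold, with a limma adjusted p of 0.0177. By culture this was 27.2-fold unpolarized, 34.5-fold in Th1 and 65.1-fold in Th2 cultures. The second gave 6.08 ± 1.13 but its wild type readings all lay below the low-signal limit, so that size is uncertain. Cxcl16, its ligand, read 94.0, 101.1 and 82.1 in wild type, against 62.9, 43.4 and 79.8 in Ezh2 KO and did not pass (adjusted p = 0.181).

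Cxcr3, which answers the interferon-induced chemokines Cxcl9, Cxcl10 and Cxcl11 and is under the Th1 factor T-bet, had the widest spread of genotype differences between cultures among the 6 tested members (SD 1.30). It read 218.8, 1313 and 227.0 in wild type, against 2378, 2382 and 1215 in Ezh2 KO. In wild type only the Th1 culture was high, whereas all 3 Ezh2 KO cultures were high, and the Ezh2 KO Th2 reading lay just below that of wild type Th1 (ratio 0.925), so the genotypes overlapped. The genotype difference was 10.9-fold in unpolarized, 1.81-fold in Th1 and 5.35-fold in Th2 cultures. Its mean of 2.24 ± 1.30 on the log2 scale did not pass (95% interval 0.63 to 3.85, unadjusted p = 0.0192 and adjusted p = 0.0766 in limma). It passed with a variance trend on intensity (adjusted p = 0.00349) and with a filter at the 60th percentile of mean intensity (adjusted p = 0.0109). Of its ligands, Cxcl10 rose at least 8.33-fold (log2 3.06 ± 0.83, adjusted p = 0.0295), with wild type readings all under the limit and 1 of them at the floor. Cxcl11 gave 1.00 ± 0.48 (adjusted p = 0.0627), and Cxcl9 was under the limit on all arrays.

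Tbx21, which encodes T-bet, was like Cxcr3 highest in the Th1 culture of wild type: it read 90.0, 530.4 and 80.8 in wild type, against 488.5, 642.8 and 335.7 in Ezh2 KO. Its log2 difference of 1.59 ± 1.15 did not pass (adjusted p = 0.108).

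Cxcr4, the receptor for Cxcl12 that holds cells in bone marrow, was higher in each culture. It read 172.8, 312.6 and 211.4 in wild type, against 868.8, 985.4 and 1702 in Ezh2 KO. The groups did not overlap. Ezh2 KO was 5.03-fold higher unpolarized, 3.15-fold in Th1 and 8.05-fold in Th2 cultures, or 2.33 ± 0.68 on the log2 scale (adjusted p = 0.0316). The wild type maximum was in Th1 and the Ezh2 KO maximum in Th2 cultures. Cxcl12 was under the limit on all arrays.

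Ccr2, the receptor for Ccl2 on inflammatory monocytes and on effector and memory T cells, was measured by 4 probe sets. The brightest read 108.4, 73.5 and 188.5 in wild type, against 1806, 1835 and 3889 in Ezh2 KO, highest in Th2 cultures of either genotype. Its log2 difference of 4.36 ± 0.29 (20.5-fold, adjusted p = 0.0143) varied little between cultures, from 4.06 to 4.64. The other 3 probe sets were also higher in each culture, by 4.09 ± 0.84, 2.11 ± 0.68 and 0.71 ± 0.31, the first 2 of these over wild type readings under the limit. The smallest one read 76.3, 82.7 and 65.8 in wild type, against 116.3, 114.0 and 136.5 in Ezh2 KO. When every probe set was tested on its own, adjusted over 21563 probe sets, 3 of the 4 Ccr2 probe sets passed (adjusted p = 0.0187, 0.0300 and 0.0427) and the smallest did not (adjusted p = 0.0727). In all, 6 of the 10 member probe sets bright enough for that test were higher in Ezh2 KO, and 0 lower. Of all probe sets tested, 5.1% were higher and 4.08% lower. The count of 6 is a description only, because it holds repeated probe sets of Cxcr6 and Ccr2 beside Cxcr4. Some of them, the second of Cxcr6 among these, reached the limit in Ezh2 KO arrays alone. Averaging the 4 probe sets gave a log2 difference of 2.81 (adjusted p = 0.00939). Direction was thus shared by all 4, but size was not.

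Since Ccr2 and Cx3cr1 are bright in monocytes, markers of myeloid cells were read beside them. Of 13 such markers, 7 were tested, and 2 (Mpeg1 and the MHC class II gene H2-Aa) were higher in Ezh2 KO and 0 lower. Their summed intensity was 2006 to 2241 in wild type and 3365 to 4867 in Ezh2 KO, mostly from the MHC class II genes H2-Ab1 and H2-Aa. H2-Ab1 read 1552, 1735 and 1511 in wild type, against 2148, 1498 and 2251 in Ezh2 KO, and did not pass (adjusted p = 0.367). H2-Aa read 37.4, 116.9 and 135.2 in wild type, against 1135, 1360 and 2037 in Ezh2 KO. Lyz2, Itgam, Itgax, Cd14, S100a8 and S100a9 were under the limit on all 6 arrays, and the macrophage receptor Csf1r read 146.1, 88.1 and 87.4 in wild type, against 103.6, 76.9 and 69.5 in Ezh2 KO. NK and NKT markers summed to 196 to 210 in wild type and 933 to 1108 in Ezh2 KO. There Cd160, at 814.0, 704.5 and 873.2 in Ezh2 KO, made up most, while 5 of 7 markers, Ncr1 and Tyrobp among them, were under the limit on all arrays. The 2 tested markers, Cd160 and Fcer1g, passed as higher (adjusted p = 0.0143 and 0.0299), Fcer1g being tested through Ezh2 KO arrays alone. Mast cell and basophil markers went from 179 to 223 in wild type to 296 to 1287 in Ezh2 KO, with the highest sum in Th2 cultures, mostly Cpa3 (1061), while Mcpt8 and Fcer1a were under the limit on all arrays. The 1 gene of this list that passed went the other way: Gata2 read 92.9, 76.0 and 78.9 in wild type, against 14.7, 33.2 and 24.4 in Ezh2 KO (log2 -1.85 ± 0.75, adjusted p = 0.045). Sums over CD8 T cell markers were 389 to 414 and 374 to 540, over gamma delta T cell markers 86 to 183 and 251 to 279, over B cell markers 110 to 248 and 310 to 932, and over regulatory T cell markers 26580 to 27912 and 23138 to 31554, wild type before Ezh2 KO. In these last 4 lists Cd163l1, a gamma delta T cell marker, and Ms4a1, a B cell marker, passed as higher (adjusted p = 0.0289 and 0.0472), and 0 markers passed as lower. The part of such cells in the receptor differences was not tested.

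Ccr6, the receptor for Ccl20 and a mark of Th17 cells, read 59.2, 58.0 and 54.8 in wild type, against 114.9, 86.9 and 144.9 in Ezh2 KO. The groups did not overlap, and the gene entered the test through its Ezh2 KO arrays alone. The log2 difference of 0.98 ± 0.41 missed the threshold (adjusted p = 0.0511, 95% interval 0.43 to 1.53). It passed under 5 of 12 alternatives, for example with each array centred on its median (adjusted p = 0.0477) and without culture as a block (adjusted p = 0.0202).

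Ccr4, the receptor for Ccl17 and Ccl22, was the 1 tested member with no common direction. It read 127.5, 107.5 and 165.3 in wild type, against 176.4, 126.5 and 143.2 in Ezh2 KO. Ezh2 KO was higher in unpolarized and Th1 cultures and lower in Th2 cultures, and the groups overlapped. The log2 difference was 0.17 ± 0.34 (adjusted p = 0.504), with a 95% interval of -0.31 to 0.64. Ccl22, its ligand, read 23.1, 3.35 and 48.3 in wild type, against 35.7, 3.76 and 65.1 in Ezh2 KO and did not pass (adjusted p = 0.192).

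The 3 remaining receptors stayed below the low-signal limit on every array. Ccr8, a receptor of Th2 and regulatory T cells, read 25.8, 27.9 and 57.3 in wild type, against 39.4, 5.22 and 60.5 in Ezh2 KO. Ccr9, the gut-homing receptor for Ccl25, read 31.6, 28.0 and 19.9 against 30.6, 25.4 and 19.2 on its brightest probe set, and its other 4 probe sets read between 1.30 and 31.7. Cx3cr1, the fractalkine receptor of monocytes and cytotoxic effector cells, read 50.3, 39.2 and 50.7 in wild type, against 36.0, 42.6 and 27.2 in Ezh2 KO. Differences between such readings are not read.

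**Figure D2:**
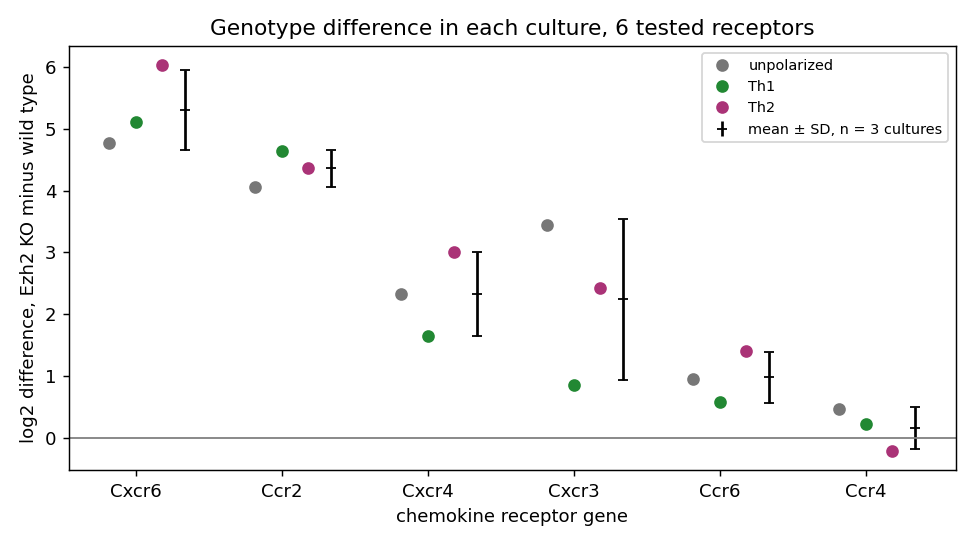
Log2 difference of Ezh2 KO minus wild type (y axis) for the 6 tested receptors (x axis), 1 coloured point per culture and the mean ± SD over the 3 cultures in black. Cxcr6 and Ccr2 lie above 4 in each culture, Cxcr3 spreads from 0.86 in Th1 to 3.44 in unpolarized cultures, and Ccr4 lies on both sides of 0.

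Counted within single cultures, without a test since each group had 1 array, 4 of the 6 tested receptors were at least 2-fold higher in Ezh2 KO in unpolarized cultures (7.55% of all tested genes), 3 in Th1 cultures (7.28%) and 5 in Th2 cultures (9.61%). Of the tested receptors 0 were at least 2-fold lower in any culture, against 5.8%, 4.42% and 5.98% of all tested genes in the same order. Cxcr6, Ccr2 and Cxcr4 met this in all 3 cultures, as did 3.85% of all tested genes. All Ezh2 KO readings lay above all wild type readings for 4 of the 6 (Cxcr6, Ccr2, Cxcr4 and Ccr6), which held for 20.1% of all tested genes. In 0 of the 6 were all readings below, which held for 27.5%. All these counts are a description only, because Ccr6 reached the low-signal limit in Ezh2 KO arrays alone. Ccr6 is 1 of the 4 without overlap and 1 of the 5 in Th2 cultures.

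The second comparison asked how polarization set the receptors. Over both genotypes, with genotype as a block, 0 members passed for Th1 against Th2, Th1 against unpolarized or Th2 against unpolarized in limma. The background was 0% in each direction of all 3 contrasts, while 878, 632 and 775 genes had an unadjusted p under 0.05. Among the members such a p was found for Ccr2 alone, and in the first and last of these contrasts. It was lower by 1.22 in Th1 than in Th2 cultures (unadjusted p = 0.00331, adjusted p = 0.538) and higher by 0.95 in Th2 than in unpolarized cultures (unadjusted p = 0.00769, adjusted p = 0.570), both on the log2 scale. With a variance trend the adjusted p for Ccr2, Th1 against Th2, was 0.0545. With the mean of its 4 probe sets these differences were -0.44 (adjusted p = 0.681) and 0.37 (adjusted p = 0.768), and 0 members had an unadjusted p under 0.05.

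Within 1 genotype the cultures gave values with no test. In wild type, Cxcr3 was higher by 2.58 on the log2 scale in Th1 than in unpolarized cultures, and by 2.53 than in Th2 cultures. In Ezh2 KO the corresponding differences were 0.00 and 0.97. The span of Cxcr3 over the 3 cultures was therefore 2.58 in wild type and 0.97 in Ezh2 KO. For Cxcr6, on its brightest probe set, it went the other way, 0.32 in wild type and 1.33 in Ezh2 KO, the latter through its Th2 culture. The narrow wild type span was not shared by the second Cxcr6 probe set, which was under the limit on all wild type arrays. Against unpolarized, that probe set gave -1.002 in Th1 and -0.964 in Th2 cultures of wild type, and 0.292 and 1.296 in Ezh2 KO. Ccr2 kept one order in part: Th2 exceeded unpolarized cultures by 0.80 in wild type and 1.11 in Ezh2 KO, while Th1 against unpolarized was -0.56 and 0.02. Cxcr4 was higher in Th1 than Th2 by 0.56 in wild type and lower by 0.79 in Ezh2 KO. Whether any of these spans or signs differs between genotypes was not tested, because the additive fit uses all arrays and an interaction leaves no residual degrees of freedom. The counts that follow, at 2-fold or more, use the brightest probe set of each of the 6 tested members. Within wild type, Cxcr3 was the 1 higher in Th1 than unpolarized cultures (3% of all tested genes) and than Th2 cultures (3.78%). Ccr2 was the 1 lower in Th1 than Th2 cultures (2.89%). Its other 3 probe sets were not lower there, at 0.235, 0.038 and 0.331 on the log2 scale, the first 2 from readings under the limit. Of the 6, 0 were lower in Th1 than unpolarized cultures (3.06%) or differed between Th2 and unpolarized cultures (2.65% higher, 3.48% lower). Within Ezh2 KO, Cxcr6 and Ccr2 were higher in Th2 than unpolarized cultures (4.29%) and lower in Th1 than Th2 cultures (3.38%). There 0 of the 6 were higher in Th1 than Th2 cultures (2.7%), lower in Th2 than unpolarized cultures (2.21%) or changed at least 2-fold between Th1 and unpolarized cultures (3.29% higher, 1.83% lower).

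**Figure D3:**
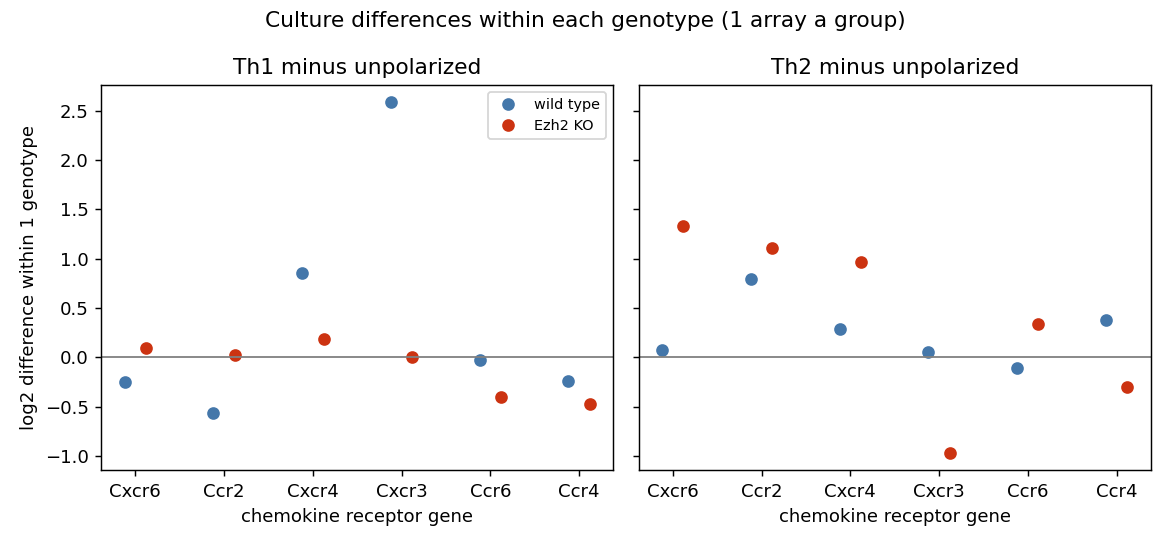
Log2 difference from the unpolarized culture (y axis) for Th1 (left) and Th2 (right) cultures, with blue points for wild type and red points for Ezh2 KO, 1 array a group. Cxcr3 in wild type Th1 cultures stands at 2.58 and in Ezh2 KO Th1 cultures at 0.00. On its brightest probe set, Cxcr6 in Th2 cultures stands at 0.07 in wild type and 1.33 in Ezh2 KO.

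Several receptor genes lie side by side on chromosome 9. In the gene order of assembly GRCm38.p6 the run from Lztfl1 to Ccr2 holds 9 protein-coding genes: Lztfl1, Ccr9, Fyco1, Cxcr6, Xcr1, Ccr1, Ccr1l1, Ccr3 and Ccr2. All 9 had a probe set with 1 symbol, and 5 were tested. The members Cxcr6 and Ccr2 passed, and 0 genes of the run fell. Ccr1, an inflammatory receptor between them, read 28.8, 32.0 and 27.1 in wild type, against 141.3, 175.8 and 961.9 in Ezh2 KO (log2 3.30 ± 1.60, adjusted p = 0.0575), with wild type readings under the limit. Its second probe set was dimmer, and gave 0.476 unpolarized, 0.268 in Th1 and 2.697 in Th2 cultures. The mean of its probe sets gave 2.22 (adjusted p = 0.087). The autophagy adaptor gene Fyco1, directly between Ccr9 and Cxcr6, read 404.8, 397.8 and 497.4 in wild type, against 461.9, 522.1 and 552.3 in Ezh2 KO (0.25 ± 0.13, adjusted p = 0.153). Lztfl1 gave 0.60 ± 0.77 (adjusted p = 0.274), with 1261 in the Ezh2 KO Th2 culture as its highest reading. Xcr1, Ccr1l1 and Ccr3 were under the limit on all arrays. Between Cxcr6 and Ccr2 thus lay Ccr1, higher in each culture without passing, and the dim genes Xcr1, Ccr1l1 and Ccr3. Fyco1 lay next to Cxcr6 and not to Ccr2.

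**Figure D4:**
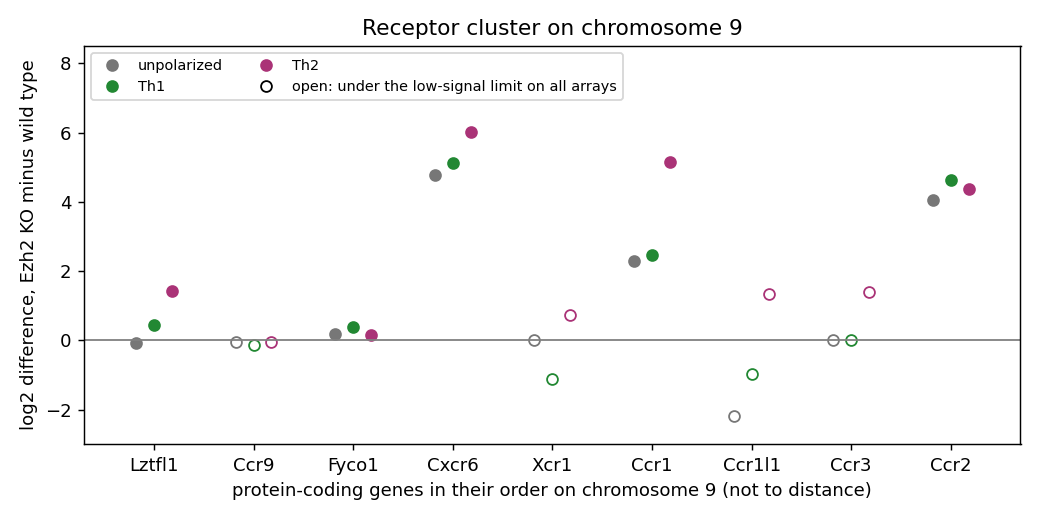
Log2 difference of Ezh2 KO minus wild type (y axis) for the genes from Lztfl1 to Ccr2 in their order on chromosome 9 (x axis, not to distance), 1 point per culture, with open points for genes below the low-signal limit on every array. On their brightest probe sets Cxcr6, Ccr1 and Ccr2 lie above 2 in each culture, and Fyco1, the gene before Cxcr6, lies near 0.

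Other chemokine receptors gave 2 higher and 1 lower gene of 7 tested, from a list of 16, against 8.35% higher and 7.98% lower of all tested genes. These counts are a description only, because 3 of the 7 (Ccr1, Ccr10 and Cxcr2) reached the low-signal limit in Ezh2 KO arrays alone. Ccr7, the lymph node homing receptor of naive cells, fell in Ezh2 KO: it read 4193, 3278 and 3036 in wild type, against 2000, 1504 and 1731 in Ezh2 KO (log2 -1.0 ± 0.17, adjusted p = 0.0266). Ccr10, a skin-homing receptor, rose by 2.01 ± 0.12 (adjusted p = 0.0143) from 24.7, 38.9 and 24.7, all under the limit, to 108.1, 158.0 and 91.5. The atypical receptor Ackr1 rose by 0.53 ± 0.14 (adjusted p = 0.0469) and kept its call in 3 of 12 alternatives, failing for example with median centring (adjusted p = 0.0573). Ccrl2 gave 0.56 ± 0.26 (adjusted p = 0.0707), Cxcr2 1.64 ± 1.34 (adjusted p = 0.132) and Ackr4 0.13 ± 0.23 (adjusted p = 0.487). Cxcr5, the follicular receptor, read 21.9, 22.2 and 21.4 in wild type, against 45.7, 44.9 and 52.9 in Ezh2 KO, under the limit throughout, as were the brightest probe sets of Ccr3, Ccr1l1, Xcr1, Ackr2, Ackr3 and Cmklr1. Falling Ccr7 beside higher Cxcr6, Ccr2 and Cxcr4 was seen in each of the 3 cultures.

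Among the ligands of the 9 receptors, 1 of 7 tested genes rose (Cxcl10) and 0 fell, against 8.35% higher and 7.98% lower of all tested genes. This too is a description only, because Cxcl10, Cxcl11, Ccl22 and Ccl1 reached the limit in Ezh2 KO arrays alone. Ccl25 gave -0.40 ± 0.15 (adjusted p = 0.0754), and Ccl1 and Cx3cl1 went both ways between cultures. Ccl2, Ccl7, Ccl8, Ccl12, Ccl17 and Ccl20 were under the limit on all arrays.

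Genes that act behind the receptors were read next. Of 20 signalling genes, 4 rose and 0 fell, against 8.35% higher and 7.98% lower of all tested genes. The count is a description only, since the list was chosen with earlier results known. The 4 were the G protein subunit Gng2 (0.94 ± 0.25, adjusted p = 0.0347), the kinase genes Prkcq (1.01 ± 0.09, adjusted p = 0.0218) and Ptk2b (0.67 ± 0.16, adjusted p = 0.0379), and Pik3cg, which encodes the gamma isoform of phosphoinositide 3-kinase (0.73 ± 0.19, adjusted p = 0.0383). The inhibitory G protein alpha chain Gnai2 was bright and gave -0.11 ± 0.07 (adjusted p = 0.368). The list's median was 0.26, against -0.07 over all genes tested. Of 12 tested genes that switch receptors off (receptor kinases, arrestins and RGS proteins), 0 passed in limma, 4 had an unadjusted p under 0.05, and the median was 0.23. The largest values were 1.17 ± 0.51 for Rgs16 (adjusted p = 0.0521), 0.84 ± 0.44 for Rgs18, 0.79 ± 0.98 for Rgs1 and 0.58 ± 0.76 for Grk5. Grk6, a receptor kinase gene, was lower in each culture (-0.40 ± 0.02, unadjusted p = 0.00819) and had the smallest adjusted p of the list, 0.050, which did not pass. Rgs1 read 5765 in the Ezh2 KO Th2 culture and 1316 to 2052 elsewhere.

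Genes of lymphoid homing and adhesion gave 3 higher and 1 lower of 12 tested, against 8.35% higher and 7.98% lower of all tested genes. This list too was chosen with earlier results known. The integrin chains Itgb1 (0.88 ± 0.14, adjusted p = 0.0276) and Itgal (0.68 ± 0.21, adjusted p = 0.0435) and the selectin ligand Selplg (0.48 ± 0.12, adjusted p = 0.0497) rose, and Ccr7 fell. The early activation gene Cd69 gave 0.93 ± 0.44 (adjusted p = 0.0617) and Itgae, under the limit on all wild type arrays, 0.87 ± 0.91 (adjusted p = 0.199). S1pr1, the exit receptor for sphingosine 1-phosphate, and its activator Klf2 went both ways between cultures, at 0.06 ± 0.57 and 0.04 ± 0.45. Of 18 tested lineage factors, 10 rose and 0 fell, against 8.35% higher and 7.98% lower of all tested genes. The count is a description only, since the list was chosen with earlier results of these data known. The largest differences were at Maf (6.31 ± 0.54), Ahr (4.52 ± 0.23), Eomes (2.48 ± 0.27) and Prdm1 (2.41 ± 0.73). Of the 10, Ahr and Zeb2 were under the limit on all wild type arrays and were tested through Ezh2 KO arrays alone, so Ahr's size is uncertain.

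Over the 6 arrays the profiles of Cxcr6 and Ccr2 were alike (Pearson r = 0.990), as were those of Cxcr6 and Cxcr4 (0.968) and Cxcr6 and Ccr6 (0.953), while Cxcr3 was less like Cxcr6 (0.708) and Ccr4 was least (0.342). These correlations describe 6 arrays that share genotype and culture. Of 3261 other tested genes with a range of at least 1 on the log2 scale, those most like Cxcr6 were Adam8 (0.999), Acvr1 (0.999) and the granzyme gene Gzmg (0.998), and 340 reached 0.95. Most like Ccr2 were Raph1 (0.997), Anxa1 (0.996) and Itgb3 (0.996). Most like Cxcr4 were Dipk2a (1.000), Rnf19b (0.999) and Zswim6 (0.998), and for Ccr6 they were Dhrs3 (0.991), Rapgef2 (0.990) and Etv6 (0.990). Cxcr3 had fewer close profiles, 32 at 0.95 or more, led by Luzp1 (0.993), the amino acid transporter gene Slc7a5 (0.992) and Dapk2 (0.988). For Ccr4 the closest was Unc5b (0.95), then Hps6 (0.943) and Nol4l (0.932).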

How the data were processed

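Affymetrix arrays of 6 mouse CD4 T cell cultures were read, 1 per genotype and culture. The authors deposited 1 linear intensity for each probe set on each array. Affymetrix Expression Console is named in the submitters' processing notes, which leave the summarization method unstated. The mean intensity after trimming 2% at each end, averaged over the 6 arrays, was 500.003. This average does not show by itself whether each array had been scaled to one target. The precision is limited by the number of arrays.

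Of 45101 probe sets (64 controls), 34945 had 1 symbol in the platform annotation, for 18193 genes. Values were raised to the 20th percentile (11.33) and taken to log2. Each gene was represented by the probe set with the highest mean and tested if any array reached the median of all values (64.43). Limma 3.58.1 in R 4.3.3 was fitted to all 6 arrays with genotype and culture as additive terms (2 residual degrees of freedom, prior 1.66), with Benjamini-Hochberg adjustment over 11572 genes, and was tested on simulated data. Folds of genes at the floor are lower bounds.

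The receptors and gene lists were chosen with earlier results of these data known. Named by rule were all members, the other receptors, up to 4 tested genes per list with the largest differences, and the 3 genes most like each tested member. Ligands, receptor neighbours, markers, Tbx21, Gnai2, Grk6, Zeb2, S1pr1 and Klf2 beyond that rule were chosen after their values were seen. Alternatives were scaling, filter, floor, probe set rule, block, variance trend and leaving out a culture.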

Additional observations from a re-analysis of the deposited data

Results flagged for a closer look

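Some tested receptors moved one way in one group and the other way in another, as given by single arrays, and none of these differences was tested. For Ccr4 the genotype difference was 0.47 in unpolarized and -0.21 in Th2 cultures, 0.68 apart on the log2 scale. Seen by culture, Ccr4 in Th2 against unpolarized cultures was 0.38 in wild type and -0.30 in Ezh2 KO, a change of -0.68. Cxcr4 in Th1 against Th2 cultures was 0.56 in wild type and -0.79 in Ezh2 KO, a change of -1.35. Cxcr3 in Th2 against unpolarized cultures was 0.05 and -0.97, a change of -1.02. Ccr6 in Th1 against Th2 cultures was 0.08 and -0.74, a change of -0.82, and in Th2 against unpolarized cultures -0.11 and 0.34, a change of 0.45. Wild type readings of Ccr6 were all under the low-signal limit, so the direction of its wild type differences is uncertain. Ccr2, on its brightest probe set, was -0.56 and 0.02 in Th1 against unpolarized cultures, a change of 0.58. Cxcr6, on its brightest probe set, was -0.25 and 0.09 in Th1 against unpolarized cultures, a change of 0.34.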

How the results depend on the processing

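The count of 3 receptors higher in Ezh2 KO became 0 without the filter on dim genes and 0 to 0 with any 1 culture left out. It became 5 with a variance trend on intensity, where the share of all genes called rose too, to 15.4% higher and 19.1% lower. In those 4 losing settings 0 of all genes passed in limma, although 5 members (no filter) and 4 to 5 members (1 culture left out) kept an unadjusted p under 0.05, as did 4711 and 2952 to 3227 of all genes. Fewer arrays remain with a culture left out. For the lost filter the cause was not tested. Over all alternatives Cxcr6 ranged from 4.94 to 5.69, Ccr2 from 2.81 to 4.51 and Cxcr4 from 1.99 to 2.67 on the log2 scale, and each was called in 9 of 13. Cxcr3 was called in 2 of 13, Ccr6 in 5 of 12 and Ccr4 in 0 of 12. In the genotype comparison these 6 receptors kept their direction under the alternatives run. The culture contrasts gave 0 members under all alternatives run. Under median centring of the arrays, the split of all genes was 863 higher and 411 lower, against 966 and 924. No filter left 18193 genes tested. Culture served as the block, which paired the genotypes within each culture. Replicates could not be paired because each group had 1 array. Signal over background limits Ccr8, Ccr9 and Cx3cr1.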
